A study of Mus musculus with 6 samples.

Results

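The data cover 10 genes of blood vessel and lymphatic endothelium in intestinal RNA: Cdh5, Pecam1, Vwf, Kdr, Flt1, Flt4, Tek, Vegfa, Angpt2 and Lyve1. They were chosen by symbol, and all 10 had a row among the 20312 rows of the table. Each was set between 3 libraries of Apc min/+;Sirt7KO intestine and 3 of Apc min/+ intestine. The first group carried the Apc min/+ allele together with a homozygous Sirt7 deletion (Sirt7 -/-), and its libraries are also called the knockout libraries. The second carried Apc min/+ with no Sirt7 deletion given, so every animal had one truncating allele of Apc, the brake on Wnt signalling whose loss starts intestinal adenomas. The mice were 5 months old and of strain 129. The labels name neither the gut segment nor any tumour dissection, and the design text speaks of 3 mice without tying each library to an animal, so p-values here measure the spread between libraries, which may be technical. The question was how loss of Sirt7, a nuclear deacylase of the sirtuin family, goes with gene expression in this tumour-prone intestine.

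Vessels grow by signals passed between tissue and endothelium. VEGF ligands made by epithelial and stromal cells act on VEGF receptors of endothelial cells, which drive sprouting and permeability. Angiopoietins act on the Tie receptors, which set how firmly a vessel is held together. Cadherin and immunoglobulin-type adhesion proteins join endothelial cells to each other, and a separate set of receptors marks the lymphatic vessels that carry fat away from the villus. In bulk RNA, fewer endothelial cells and less RNA per endothelial cell cannot be told apart.

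Library depth ranged from 24987313 to 27661396 reads in Apc min/+;Sirt7KO libraries and from 28123962 to 29603348 reads in Apc min/+ libraries. Sirt7 averaged 228 ± 11.1 normalised reads in Apc min/+;Sirt7KO libraries and 2173 ± 64.5 in Apc min/+ libraries (SD, n = 3 each, log2 fold change -3.25, limma adjusted p = 2.96e-20), as labelled. Epithelial markers were abundant in both groups but not equal. Summed levels of the 5 genes of the list were 237270 to 240630 normalised reads in Apc min/+;Sirt7KO libraries and 311470 to 317160 in Apc min/+ libraries, with 3 genes lower, 1 higher and 1 that did not pass, or 1 lower and 3 higher under quantile normalization. Values are reads divided by 1 size factor per library, and a gene passed at a limma adjusted p under 0.05 over the 16600 genes tested. Fold changes are given on the log2(value + 1) scale as Apc min/+;Sirt7KO over Apc min/+.

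All 10 genes passed, 6 higher and 4 lower in the Sirt7 knockout. Over all genes tested 62.5% passed, 31.6% higher and 30.9% lower, so a gene that passed was the usual case in this comparison. What set the genes apart from each other was size and direction. The endothelial cadherin Cdh5, the receptor Tek and its ligand Angpt2 were 2.64 to 2.85 times as high as in Apc min/+ libraries. The VEGF receptors Kdr and Flt1 and the clotting factor Vwf rose by 0.21 to 0.36 on the log2 scale. The ligand Vegfa, the adhesion gene Pecam1 and the lymphatic genes Flt4 and Lyve1 fell to between 70.04% and 78.3% of their Apc min/+ level. Changes of over 2-fold that passed were seen for 3 of the 10 genes, all higher, against 9.77% of all genes tested higher and 6.88% lower. For 9 of the 10 the groups did not overlap, against 66.5% of all genes tested. edgeR's quasi-likelihood test on the recovered reads called 6 of the 10 higher and 4 lower, against 32.3% and 30.2% of all genes. DESeq2 called 5 higher and 4 lower, against 30% and 29.7%, and limma after quantile normalization called 4 higher and 4 lower, against 28.6% and 33.1%. By the authors' deposited table, an adjusted p under 0.05 was given for 9 of the 10, against 49.2% of all rows. The exact two-sided permutation test of 3 against 3 libraries gave p = 0.1 for these 9, the smallest value this design allows, and p = 0.2 for Vwf.

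**Figure D1:**
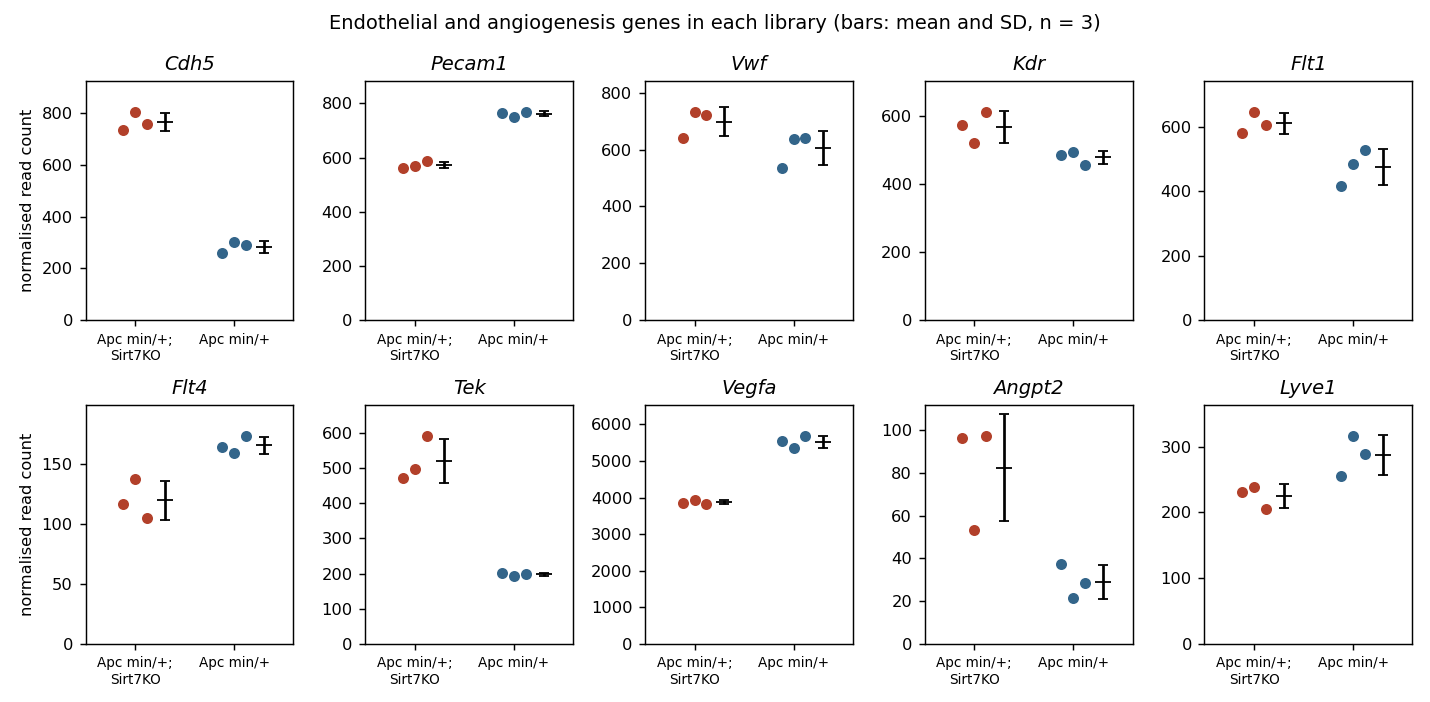
Normalised read count of each of the 10 genes in the 3 Apc min/+;Sirt7KO libraries (left, red) and the 3 Apc min/+ libraries (right, blue), each axis starting at 0, with mean and SD beside the points. Cdh5, Tek and Angpt2 stand higher in all 3 knockout libraries, Pecam1, Flt4, Vegfa and Lyve1 stand lower, and Vwf is the gene whose groups overlap.

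The junction and surface genes moved in opposite directions. Cdh5 encodes VE-cadherin, the adherens junction protein of endothelial cells (chromosome 8, 104101625 to 104144511, plus strand, mm10). It read 735, 804 and 758 normalised reads in the Apc min/+;Sirt7KO libraries, against 258, 302 and 289 in the Apc min/+ libraries. Every knockout library stood far above every Apc min/+ library, with a ratio of means of 2.70 (log2 fold change 1.43 ± 0.09 SE, limma adjusted p = 2.18e-12). Pecam1 encodes CD31, the immunoglobulin-type adhesion protein of endothelial contacts, which platelets and many leukocytes also carry (chromosome 11, 106654217 to 106750628, minus strand). It read 562, 569 and 586 normalised reads in Apc min/+;Sirt7KO libraries, against 766, 751 and 767 in Apc min/+ libraries. The groups were narrow and well apart, and Pecam1 fell by 0.41 on the log2 scale (SE 0.07, limma adjusted p = 2.66e-05). The read ratio of Cdh5 to Pecam1, which does not depend on library scaling, was therefore 1.34 ± 0.06 in Apc min/+;Sirt7KO libraries and 0.37 ± 0.03 in Apc min/+ libraries (SD, n = 3 each), 3.60 times as high. This and the other read ratios were chosen after the values were seen. B cell markers stood at 574 to 808 summed normalised reads in Apc min/+;Sirt7KO libraries and 6453 to 7237 in Apc min/+ libraries, and T cell markers at 868 to 998 against 2919 to 3168. All 7 B cell and all 5 T cell genes passed as lower, against 30.9% of all genes tested. The part of leukocyte RNA in the Pecam1 value was not tested.

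Vwf encodes von Willebrand factor, the clotting protein stored by endothelial cells and platelets (chromosome 6, 125546774 to 125686679, plus strand). Its level was 640.3, 732 and 724 normalised reads in Apc min/+;Sirt7KO libraries, against 537, 639 and 642 in Apc min/+ libraries. The lowest knockout library fell just below the highest Apc min/+ library. The log2 fold change was 0.21 ± 0.08 SE (limma adjusted p = 0.036), the weakest of the 10. It no longer passed without the second or the third knockout library (limma adjusted p = 0.13 and 0.12), without the first Apc min/+ library (0.12 on the log2 scale, limma adjusted p = 0.22), under quantile normalization (0.08, limma adjusted p = 0.43) or in DESeq2 (adjusted p = 0.058). In the authors' deposited table its adjusted p was 0.069. Platelet genes were low, with summed levels of 123 to 171 normalised reads in Apc min/+;Sirt7KO libraries and 161 to 219 in Apc min/+ libraries over the list. Of 2 tested, Itga2b passed as lower (125 ± 31.7 in Apc min/+;Sirt7KO and 166 ± 20.8 in Apc min/+ libraries, limma adjusted p = 0.038) and Pf4 did not pass. The Itga2b log2 fold change lost its call without the first knockout library (-0.21, limma adjusted p = 0.29), without the second or the third Apc min/+ library (limma adjusted p = 0.065 and 0.15) and in DESeq2 (adjusted p = 0.060), and its adjusted p ranged down to 0.0044 under quantile normalization. Pf4 averaged 24.8 ± 2.67 in Apc min/+;Sirt7KO and 18.7 ± 10.8 in Apc min/+ libraries, and Ppbp and Gp9 had at most 18 reads in a group. The part of platelets in the Vwf value was not tested.

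Among the receptors for VEGF, Kdr and Flt1 were slightly higher and Flt4, described below with Lyve1, was lower. Kdr encodes VEGFR2, the main signalling receptor for VEGF-A (chromosome 5, 75932827 to 75978458, minus strand). It read 574, 520.3 and 612 normalised reads in Apc min/+;Sirt7KO libraries, against 485, 496 and 458 in Apc min/+ libraries. The groups came close to each other but did not overlap, and Kdr rose by 0.24 on the log2 scale (SE 0.08, limma adjusted p = 0.016). Kdr did not pass without the third knockout library (limma adjusted p = 0.094), without the third Apc min/+ library (limma adjusted p = 0.058) or under quantile normalization (0.10 on the log2 scale, limma adjusted p = 0.32). Flt1 encodes VEGFR1, which binds VEGF-A tightly and also occurs as a secreted form that traps the ligand (chromosome 5, 147561604 to 147726011, minus strand). Its level was 582, 645 and 606 normalised reads in Apc min/+;Sirt7KO libraries, against 417, 484 and 528 in Apc min/+ libraries. It rose by 0.36 on the log2 scale (SE 0.09, limma adjusted p = 0.0012), or by 0.23 under quantile normalization. Counts per gene do not separate the membrane form of Flt1 from the secreted one. The read ratio of Flt1 to Kdr was 1.08 ± 0.14 in Apc min/+;Sirt7KO and 1.00 ± 0.15 in Apc min/+ libraries (SD, n = 3 each), with overlapping groups.

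Tek encodes Tie2, the receptor for the angiopoietins (chromosome 4, 94739289 to 94874976, plus strand). It stood at 471, 498 and 592 normalised reads in Apc min/+;Sirt7KO libraries, against 200.3, 193 and 198 in Apc min/+ libraries. The Apc min/+ libraries were nearly equal and the lowest knockout library stood far above them, with a log2 fold change of 1.39 ± 0.11 SE (limma adjusted p = 1.01e-10). Tie1, the related receptor that has no high-affinity ligand of its own and pairs with Tie2, did not pass (294 ± 30.1 in Apc min/+;Sirt7KO and 310 ± 58.5 in Apc min/+ libraries, SD, n = 3 each, 95% interval of the log2 difference -0.33 to 0.19). The read ratio of Tek to Tie1 was 1.78 ± 0.25 in Apc min/+;Sirt7KO libraries and 0.65 ± 0.11 in Apc min/+ libraries.

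The promoters of 3 of these receptor genes are shown because Tek differs from Kdr and Flt1 in the size of its rise. They give the bases just before the RefSeq start of each gene on GRCm38.p6, 5′ to 3′ on the gene's strand, with capitals marking GGAA or its reverse complement TTCC, the core letters of sites bound by ETS factors such as the endothelial Erg and Fli1. Tek lies on the plus strand (chr4:94739039-94739288), Flt1 on the minus strand (chr5:147726012-147726261) and Kdr on the minus strand (chr5:75978459-75978705). The Kdr window stops short of the RefSeq start, where an annotated exon begins, and holds 247 bases, against 250 for Tek and Flt1.
Tek: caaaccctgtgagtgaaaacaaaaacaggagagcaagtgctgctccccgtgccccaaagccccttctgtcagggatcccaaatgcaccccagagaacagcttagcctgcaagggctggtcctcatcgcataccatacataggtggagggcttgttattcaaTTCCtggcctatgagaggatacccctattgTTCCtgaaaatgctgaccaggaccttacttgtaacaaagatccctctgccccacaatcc
Flt1: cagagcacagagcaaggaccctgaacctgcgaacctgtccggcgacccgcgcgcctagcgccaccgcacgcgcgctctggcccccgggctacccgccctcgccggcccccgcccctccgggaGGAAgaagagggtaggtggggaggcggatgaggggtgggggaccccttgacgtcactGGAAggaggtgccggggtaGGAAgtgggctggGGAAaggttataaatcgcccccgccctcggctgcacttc
Kdr: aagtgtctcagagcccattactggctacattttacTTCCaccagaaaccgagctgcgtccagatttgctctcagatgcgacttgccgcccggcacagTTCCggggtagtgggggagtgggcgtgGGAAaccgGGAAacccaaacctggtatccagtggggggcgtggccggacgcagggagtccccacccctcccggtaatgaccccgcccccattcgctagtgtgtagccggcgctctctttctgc
These letters stood 2 times in the Tek window, 4 times in the Flt1 window and 4 times in the Kdr window. Of all 32851 RefSeq windows of 250 bases, 93.4% held at least 1 match on either strand and 76.8% held 2 or more, with a median of 3, so a match is no mark of these genes. RefSeq windows were at hand for 5 of the 10 genes.

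The ligands went in opposite directions. Vegfa, the main VEGF ligand for blood vessels (chromosome 17, 46016993 to 46032369, minus strand), read 3853, 3938 and 3831 normalised reads in Apc min/+;Sirt7KO libraries, against 5544, 5362 and 5687.5 in Apc min/+ libraries. The groups were narrow and far apart, and Vegfa fell by 0.51 on the log2 scale (SE 0.04, limma adjusted p = 2.99e-10). Under quantile normalization its fall was 0.33. Epithelial genes lower in the same libraries were Krt20, the keratin of mature surface cells, at 47628 ± 1364 in Apc min/+;Sirt7KO and 92886 ± 627 in Apc min/+ libraries, and Vil1, the brush border villin gene, at 57699 ± 1009.5 in Apc min/+;Sirt7KO and 85763 ± 1884 in Apc min/+ libraries. Epcam fell by 0.11 and Cdh1 rose by 0.21 on the log2 scale, and Krt8 did not pass. Under quantile normalization Krt20 still passed as lower (-0.51), the Vil1 log2 fold change was -0.042 and did not pass (limma adjusted p = 0.25) and Epcam passed as higher (0.28). The part of epithelium in the Vegfa value was not tested. Angpt2 encodes angiopoietin-2, which is released by activated endothelial cells and loosens vessels by opposing angiopoietin-1 at Tie2 (chromosome 8, 18690263 to 18741562, minus strand). It was the least abundant of the 10 by reads, with 262 reads over the 3 Apc min/+;Sirt7KO libraries and 84 over the 3 Apc min/+ libraries. Its level was 96.4, 53.4 and 97.3 normalised reads in Apc min/+;Sirt7KO libraries, against 37.2, 21.4 and 28.2 in Apc min/+ libraries. The second library of each group was the lowest, and the groups did not overlap (log2 fold change 1.46 ± 0.28 SE, limma adjusted p = 0.00010). Its 95% interval, 0.87 to 2.05, is the widest of the 10.

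Angpt1, the Tie2 agonist made by perivascular cells, read 19.8, 10.1 and 21.9 normalised reads in Apc min/+;Sirt7KO libraries, against 44.4, 40.6 and 53.4 in Apc min/+ libraries. It fell by 1.43 on the log2 scale (SE 0.34, limma adjusted p = 0.00088). Angpt1 shares 737 exon bases with the gene model Gm17473, so its value is uncertain. The same holds for other genes named here that share exon bases, such as Csf1r (873), Selp (624) and Icam1 (511). The 10 genes share none. The read ratio of Angpt2 to Angpt1 was 4.87 ± 0.43 in Apc min/+;Sirt7KO libraries and 0.63 ± 0.18 in Apc min/+ libraries (SD, n = 3 each). By library it was 4.86, 5.30 and 4.44 in Apc min/+;Sirt7KO, against 0.84, 0.53 and 0.53 in Apc min/+. Angpt4 was too low to be tested, with 15 reads over the Apc min/+;Sirt7KO libraries and 1 over the Apc min/+ libraries.

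**Figure D2:**
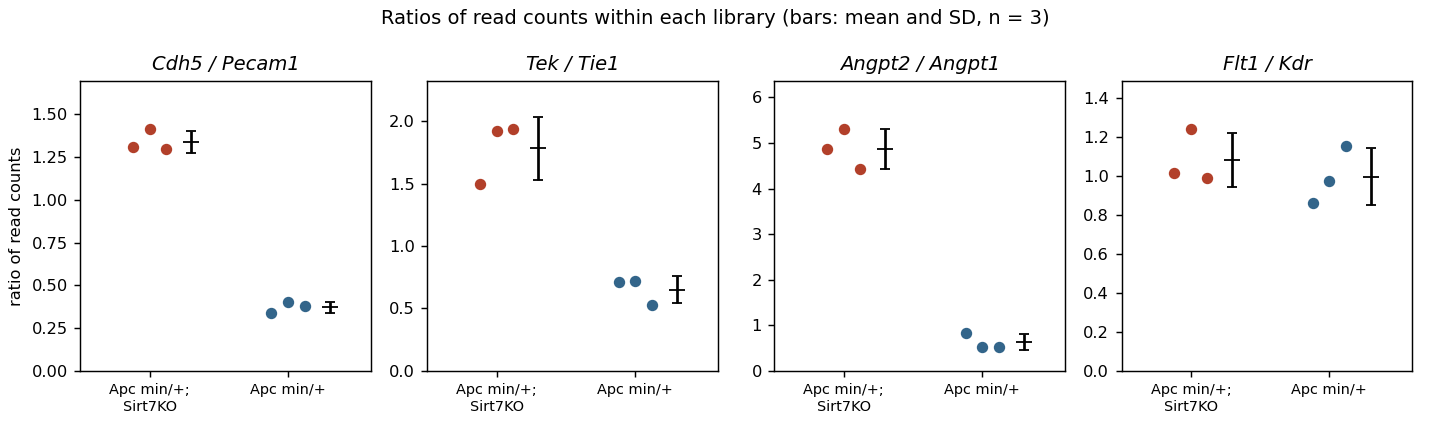
Ratio of normalised read counts of 2 genes within each library, for Apc min/+;Sirt7KO (left, red) and Apc min/+ (right, blue) libraries, with mean and SD (n = 3). Cdh5 to Pecam1, Tek to Tie1 and Angpt2 to Angpt1 are higher in all 3 knockout libraries, and Flt1 to Kdr overlaps between the groups.

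Both lymphatic genes fell. Flt4 encodes VEGFR3, the receptor for VEGF-C and VEGF-D on lymphatic endothelium (chromosome 11, 49609263 to 49652739, plus strand). It read 116, 137 and 105 normalised reads in Apc min/+;Sirt7KO libraries, against 164, 159 and 173 in Apc min/+ libraries, and fell by 0.48 on the log2 scale (SE 0.15, limma adjusted p = 0.0093). Lyve1 encodes the hyaluronan receptor of lymphatic endothelium, which some tissue macrophages also carry (chromosome 7, 110850607 to 110863239, minus strand). Its level was 231, 239 and 205 normalised reads in Apc min/+;Sirt7KO libraries, against 256, 316 and 289 in Apc min/+ libraries. The groups were close but did not overlap. Lyve1 fell by 0.35 on the log2 scale (SE 0.12, limma adjusted p = 0.014), but did not pass without the third knockout library (limma adjusted p = 0.067) or without the second Apc min/+ library (limma adjusted p = 0.082). Under quantile normalization its fall was 0.54.

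The lymphatic ligand Vegfc read 72.0, 80.7 and 70.6 normalised reads in Apc min/+;Sirt7KO libraries, against 130.1, 135 and 121 in Apc min/+ libraries, and fell by 0.78 on the log2 scale (SE 0.17, limma adjusted p = 0.00043). Of the 8 other lymphatic genes tested, 5 fell and 3 rose, against 30.9% of all genes tested lower and 31.6% higher. Their median log2 fold change was -0.41. Reln, which encodes the secreted protein reelin, fell by 0.95, Nfatc1, a factor of lymphatic valves, by 0.66 and the multimerin gene Mmrn1 by 0.52 on the log2 scale. Stab2 fell by 1.39. Fgl2 fell by 0.31, at 1895 ± 87.1 normalised reads in Apc min/+;Sirt7KO and 2348 ± 94.4 in Apc min/+ libraries, the highest level of the list. Prox1, Pdpn and Tbx1 of the list went the other way. Prox1, the factor that fixes lymphatic identity, averaged 783 ± 31.1 normalised reads in Apc min/+;Sirt7KO libraries and 11.5 ± 6.71 in Apc min/+ libraries (SD, n = 3 each, log2 fold change 6.09, limma adjusted p = 2.10e-12). Pdpn, the mucin-type protein podoplanin, averaged 122 ± 17.6 in Apc min/+;Sirt7KO and 51.1 ± 5.32 in Apc min/+ libraries. Tbx1 averaged 31.7 ± 3.27 in Apc min/+;Sirt7KO and 10.4 ± 2.30 in Apc min/+ libraries. Prox1 is also made by enteroendocrine and adenoma epithelium, and Pdpn by fibroblasts, as background. Which cells held the reads of this list, of genes that fell as of those that rose, was not tested. Of 7 macrophage genes tested 4 passed as lower and 3 did not pass, with Csf1r at 708 ± 26.3 in Apc min/+;Sirt7KO and 1255 ± 8.90 in Apc min/+ libraries, while Mrc1 and Cd163 did not pass (limma adjusted p = 0.64 and 0.69). The part of macrophages in the Lyve1 value was not tested, nor was which cells held the Flt4 reads.

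Per kilobase of annotated exon, the order of the 10 genes changed between the groups. Vegfa led both, with 1099.6 ± 16.02 normalised reads per kilobase in Apc min/+;Sirt7KO and 1570.0 ± 46.3 in Apc min/+ libraries, and its libraries overlapped with no other gene's. In Apc min/+;Sirt7KO libraries Cdh5 came next with 192 ± 8.76 per kilobase, then Pecam1 with 138 ± 2.96, Tek with 111 ± 13.5 and Kdr with 96.0 ± 7.80. In Apc min/+ libraries Pecam1 came next with 184 ± 2.16 per kilobase, then Lyve1 with 99.3 ± 10.4, Kdr with 81.0 ± 3.27 and Cdh5 with 70.9 ± 5.69, while Tek stood eighth with 42.0 ± 0.75. Neighbours that overlapped were Tek and Kdr, Lyve1 and Vwf, and Angpt2 and Flt4 in Apc min/+;Sirt7KO libraries, and Cdh5 and Vwf, and Flt1 and Tek, in Apc min/+ libraries. Angpt2 and Flt4 stood at the lower end in both groups, Angpt2 with 23.1 ± 7.04 per kilobase in Apc min/+;Sirt7KO and 8.12 ± 2.22 in Apc min/+ libraries, and Flt4 with 19.1 ± 2.61 in Apc min/+;Sirt7KO and 26.5 ± 1.14 in Apc min/+ libraries.

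The other ligands and receptors of these pathways mostly did not pass. Of 11 genes tested, 1 rose, 2 fell and 8 did not pass, against 31.6% of all genes tested higher and 30.9% lower. Their median log2 fold change was -0.07, beside 0.01 over all genes tested. The 2 that fell were Vegfc and Angpt1. Sema3c, a secreted semaphorin that signals through neuropilins and plexins, averaged 687 ± 55.6 normalised reads in Apc min/+;Sirt7KO and 194 ± 19.4 in Apc min/+ libraries (log2 fold change 1.82 ± 0.10 SE, limma adjusted p = 4.49e-13). The co-receptor Nrp1 averaged 543 ± 28.2 in Apc min/+;Sirt7KO and 542 ± 32.8 in Apc min/+ libraries, with a 95% interval of -0.17 to 0.17 for the log2 difference. Nrp2 averaged 593 ± 62.5 in Apc min/+;Sirt7KO and 612 ± 49.1 in Apc min/+ libraries. The semaphorin receptor Plxnd1 averaged 605 ± 67.3 in Apc min/+;Sirt7KO and 537 ± 52.6 in Apc min/+ libraries. Vegfb, a ligand of VEGFR1, averaged 115 ± 12.03 in Apc min/+;Sirt7KO and 124 ± 2.21 in Apc min/+ libraries. Pgf, the placental ligand of VEGFR1, averaged 28.6 ± 6.97 in Apc min/+;Sirt7KO and 26.3 ± 4.46 in Apc min/+ libraries, and Figf, the older symbol of Vegfd, 28.1 ± 3.44 in Apc min/+;Sirt7KO and 38.1 ± 7.90 in Apc min/+ libraries. Sema3a was likewise low, with 110 reads over the Apc min/+;Sirt7KO libraries and 109 over the Apc min/+ libraries.

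**Figure D3:**
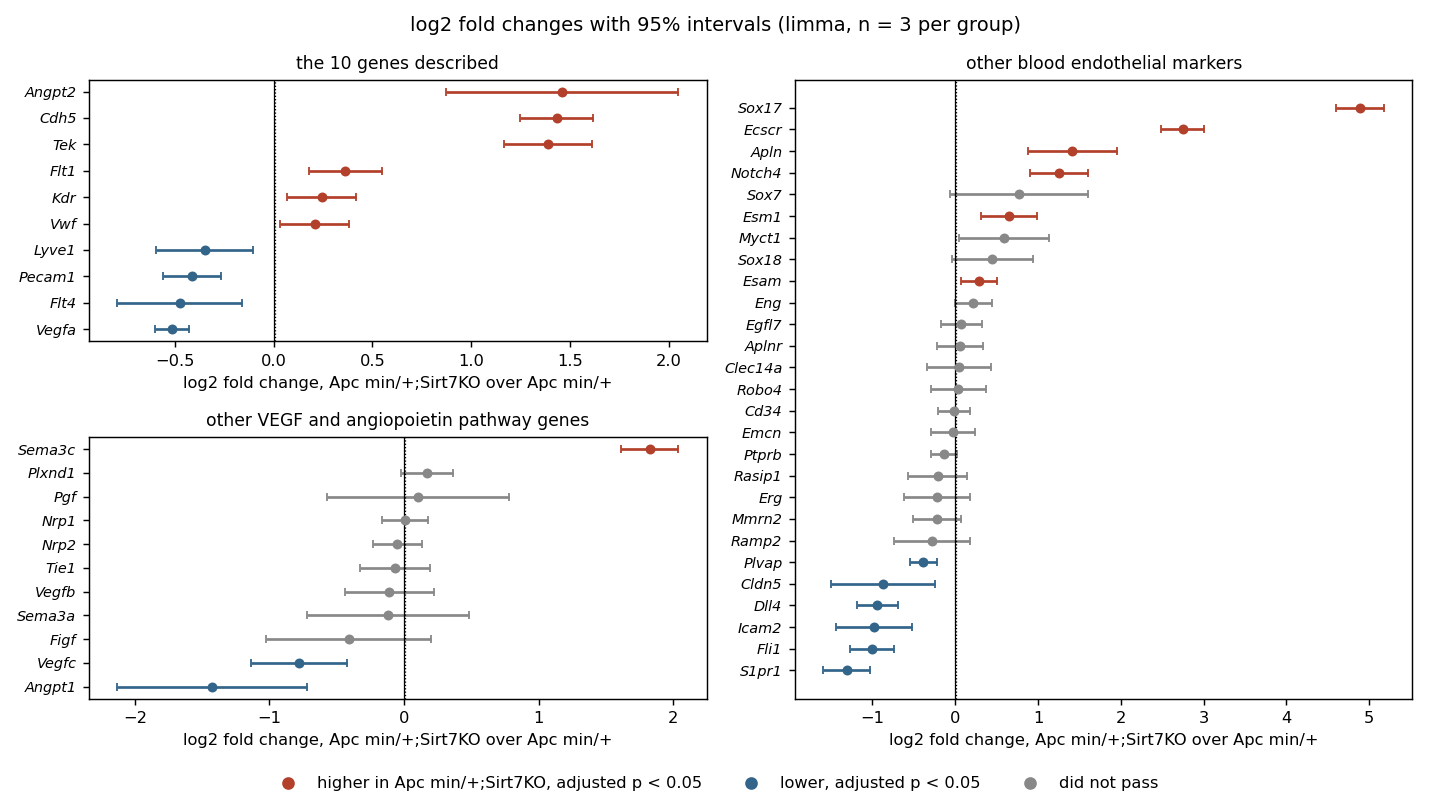
log2 fold change of Apc min/+;Sirt7KO over Apc min/+ with its 95% interval for the 10 genes (top left), 11 other VEGF and angiopoietin pathway genes (bottom left) and 27 other blood endothelial markers (right), coloured by whether they passed as higher (red), as lower (blue) or not (grey). Angpt2, Cdh5 and Tek sit near 1.4, most other pathway genes sit near 0, and the endothelial markers run from -1.31 for S1pr1 to 4.89 for Sox17.

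The remaining blood endothelial markers were split. Of 27 tested, 6 rose, 6 fell and 15 did not pass, against 31.6% of all genes tested higher and 30.9% lower. Most of them thus did not pass, while 62.5% of all genes tested did. The median log2 fold change was 0.04 and turned to -0.16 under quantile normalization. Ecscr, an endothelial surface protein of cell movement, averaged 816 ± 13.1 normalised reads in Apc min/+;Sirt7KO and 123 ± 28.5 in Apc min/+ libraries (log2 fold change 2.75 ± 0.13 SE, limma adjusted p = 2.77e-14). Sox17, a factor of arterial endothelium and of endoderm, averaged 1058 ± 65.7 in Apc min/+;Sirt7KO and 35.0 ± 5.98 in Apc min/+ libraries (log2 fold change 4.89 ± 0.14 SE, limma adjusted p = 3.06e-18). Apln, Notch4, Esm1 and Esam rose as well, by 1.41, 1.26, 0.65 and 0.28 on the log2 scale. S1pr1, the sphingosine phosphate receptor, averaged 155 ± 35.7 in Apc min/+;Sirt7KO and 379 ± 8.33 in Apc min/+ libraries (log2 fold change -1.31 ± 0.14 SE, limma adjusted p = 2.06e-08), and Fli1 averaged 127 ± 6.15 in Apc min/+;Sirt7KO and 256 ± 10.4 in Apc min/+ libraries. Lymphocytes also express S1pr1, Fli1 and Icam2, which fell by 0.98 on the log2 scale. Dll4, the Notch ligand of tip cells and also of crypt epithelium, fell by 0.94, Cldn5 by 0.87 and the fenestral diaphragm gene Plvap by 0.38. Erg, Emcn, Cd34, Robo4, Egfl7, Clec14a and Mmrn2 were among those that did not pass. Cd34 averaged 367 ± 10.9 in Apc min/+;Sirt7KO and 372 ± 7.40 in Apc min/+ libraries, with a 95% interval of -0.21 to 0.17.

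Set against this panel, 3 of the 10 genes were higher, 4 were lower and 3 did not pass. The share lower was near that of all genes tested, so it is no mark of these genes. The panel holds genes that lymphocytes, endoderm or crypt epithelium also express, as given above. The mean log2 level of the 27 other blood endothelial markers in each library was subtracted from every gene, a choice made after seeing that Cdh5 and Pecam1 moved apart, and the fit was repeated. Cdh5, Tek and Angpt2 were then higher by 1.18 ± 0.10, 1.13 ± 0.11 and 1.21 ± 0.28 (log2, SE), against 18.9% of all genes called higher. Pecam1, Flt4, Vegfa and Lyve1 were lower by 0.67, 0.73, 0.77 and 0.60, against 47.1% of all genes called lower, with limma adjusted p-values of at most 0.00012. Vwf, Kdr and Flt1 did not pass, with 95% intervals of -0.22 to 0.13, -0.20 to 0.17 and -0.08 to 0.30. Genes that moved widely weigh on a mean: the panel's mean log2 fold change was 0.25 and its median 0.04. With the median of the panel in its place, the same 3 genes were higher, the same 4 lower and the same 3 did not pass, against 17% of all genes higher and 35.3% lower. With Cdh5 and Pecam1 together subtracted, as first planned, Tek and Angpt2 were higher (0.88 and 0.95) and Vwf, Kdr, Flt4, Vegfa and Lyve1 lower, against 11.7% and 62.4% of all genes. That reference rests on 2 genes that moved in opposite directions, and the calls differed with either alone. Against Cdh5 alone, Vwf, Kdr, Flt1, Flt4, Vegfa and Lyve1 were lower by 1.07 to 1.95 on the log2 scale, and Tek and Angpt2 did not pass, against 88.9% of all genes lower and 3.79% higher. Against Pecam1 alone, Vwf, Kdr, Flt1, Tek and Angpt2 were higher by 0.62 to 1.87 and Flt4, Vegfa and Lyve1 did not pass, against 60.9% of all genes higher and 12.1% lower.

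Most tested genes of a list of high endothelial venule and venular adhesion genes fell. Lymphocytes enter gut lymphoid tissue through these venules. Of 7 tested, 5 fell and 1 rose, with a median log2 fold change of -0.54, against 30.9% of all genes tested lower. The addressin Madcam1 averaged 55.4 ± 25.4 normalised reads in Apc min/+;Sirt7KO and 203 ± 26.7 in Apc min/+ libraries, and Vcam1 averaged 175 ± 30.9 in Apc min/+;Sirt7KO and 417 ± 38.8 in Apc min/+ libraries. Fut7 fell by 1.69 and Icam1 by 0.45 on the log2 scale. Chst4, far more abundant than Madcam1, fell least. It averaged 976 ± 130 in Apc min/+;Sirt7KO and 1105 ± 56.1 in Apc min/+ libraries, with overlapping groups (limma adjusted p = 0.045). Which cells held the Chst4 reads was not tested. Glycam1 and Sele were too low to be tested. Glycam1 had 2 reads over the Apc min/+;Sirt7KO libraries and 56 over the Apc min/+ libraries, and Sele had 28 and 6. The platelet and endothelial selectin Selp went the other way, at 106 ± 8.26 in Apc min/+;Sirt7KO and 38.3 ± 17.0 in Apc min/+ libraries (log2 fold change 1.53, limma adjusted p = 1.96e-05). Without the first Apc min/+ library 3 rather than 5 genes of this list passed as lower. The B cell and T cell values given above moved the same way, and their part in these falls was not tested.

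Several secreted inhibitors of vessel growth rose. Of 8 tested, 4 rose and 4 did not pass, against 31.6% of all genes tested higher and 30.9% lower. The median log2 fold change was 0.55, and under quantile normalization 1 passed as lower. Those that did not pass were Thbs2, Serpinf1, Cxcl9 and Cxcl10. Thbs1, the thrombospondin that blocks angiogenesis through CD36, averaged 3617 ± 309 normalised reads in Apc min/+;Sirt7KO and 817 ± 57.6 in Apc min/+ libraries (log2 fold change 2.14 ± 0.06 SE, limma adjusted p = 1.32e-17). Col18a1, the collagen that yields endostatin, averaged 1860.0 ± 138 in Apc min/+;Sirt7KO and 808 ± 102 in Apc min/+ libraries. The protease gene Adamts1 averaged 301 ± 35.2 in Apc min/+;Sirt7KO and 151 ± 24.7 in Apc min/+ libraries, and the endothelial vasohibin Vash1 156 ± 13.6 in Apc min/+;Sirt7KO and 91.9 ± 14.6 in Apc min/+ libraries. Fibroblasts and epithelium also make several of these, and which cells held the reads was not tested.

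Vegfa is also a target of hypoxia-inducible factors, as background. Most hypoxia response genes that passed were higher. Of 13 tested, 7 rose, 2 fell and 4 did not pass, against 31.6% of all genes tested higher and 30.9% lower. Their median log2 fold change was 0.45. The list counts the factor genes Hif1a, Epas1 and Arnt beside target genes. Those that did not pass were Arnt, Egln1, Ndrg1 and Pgk1. Slc2a1, the glucose transporter, rose by 1.61, Hif1a by 0.54 and the prolyl hydroxylase Egln3 by 0.50 on the log2 scale. Epas1, which encodes HIF-2 alpha, averaged 2654 ± 130.1 in Apc min/+;Sirt7KO and 3370 ± 54.0 in Apc min/+ libraries and fell by 0.35. Ldha fell by 0.26, or rose by 0.17 under quantile normalization. The part of the hypoxia response in the Vegfa value was not tested.

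Supporting cells of the vessel wall and stroma differed by list. Over all genes tested 31.6% passed as higher and 30.9% as lower. Of 9 mural cell genes tested, 4 rose, 2 fell and 3 did not pass, and under quantile normalization none of the 4 passed as higher, and without the second Apc min/+ library 2 did. The pericyte gene Rgs5 averaged 3496 ± 101 in Apc min/+;Sirt7KO and 6758 ± 271 in Apc min/+ libraries, whereas Pdgfrb averaged 608 ± 48.5 in Apc min/+;Sirt7KO and 495 ± 52.4 in Apc min/+ libraries. Of 8 smooth muscle genes 5 fell and 1 rose (median -0.38), with Myh11 at 11126 ± 487 in Apc min/+;Sirt7KO and 17519 ± 599 in Apc min/+ libraries. Of 7 fibroblast genes 6 rose and 1 fell (median 0.45), with Col1a1 at 2171 ± 199.9 in Apc min/+;Sirt7KO and 643 ± 37.4 in Apc min/+ libraries. All 5 adipocyte genes fell, and 4 of them were at or near 0 in the knockout: Adipoq had 13 reads over the Apc min/+;Sirt7KO libraries and 252 over the Apc min/+ libraries, and Cfd had 17 over the Apc min/+;Sirt7KO and 311 over the Apc min/+ libraries. Cidec, which enterocytes also express, averaged 1770.1 ± 104 in Apc min/+;Sirt7KO and 3957 ± 53.9 in Apc min/+ libraries. Summed levels of the mural cell list were 11836 to 12049 in Apc min/+;Sirt7KO and 16373 to 16970 in Apc min/+ libraries. Most of these reads were of Rgs5 and Des, the 2 genes that fell, so the sum does not speak for the list. Des, which is also in the smooth muscle list, averaged 5777 ± 147 in Apc min/+;Sirt7KO and 7617 ± 517 in Apc min/+ libraries. The part of adipose, lymphoid and stromal cells in the values of the 10 genes was not tested.

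**Figure D4:**
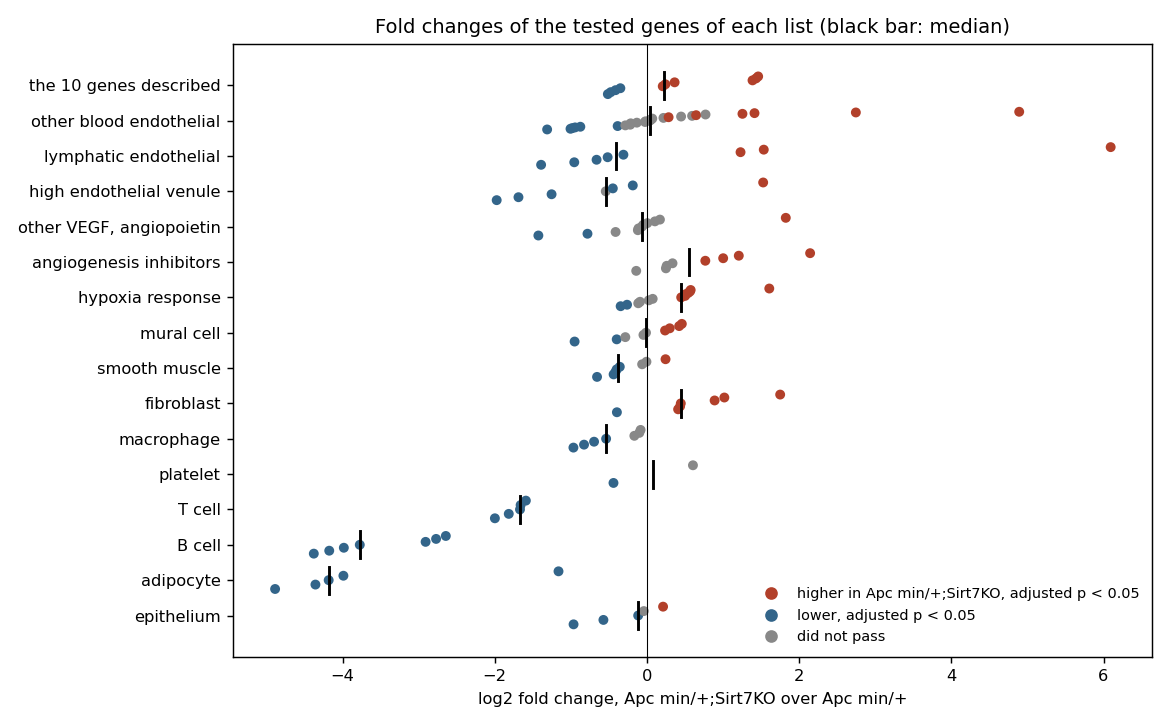
log2 fold change of Apc min/+;Sirt7KO over Apc min/+ for the tested genes of each list (points, red higher, blue lower, grey did not pass) with the list's median (black bar). The 10 genes and the other blood endothelial markers spread to both sides of 0, while the B cell, T cell and adipocyte lists lie below 0 throughout, with medians of -3.77 and -1.67 for B and T cells.

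The calls for 7 of the 10 genes held under all 16 alternatives run for the fold changes, and none of the 10 changed direction under any of them. The share of all genes tested that held in this way was not computed, so the count is no mark of these genes. The 7 were Cdh5, Pecam1, Flt1, Flt4, Tek, Vegfa and Angpt2. Cdh5 ranged from 1.28 to 1.48, Tek from 1.22 to 1.46 and Angpt2 from 1.23 to 1.74 on the log2 scale. Pecam1 ranged from -0.54 to -0.40, Flt4 from -0.66 to -0.39 and Vegfa from -0.54 to -0.33.

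**Figure D5:**
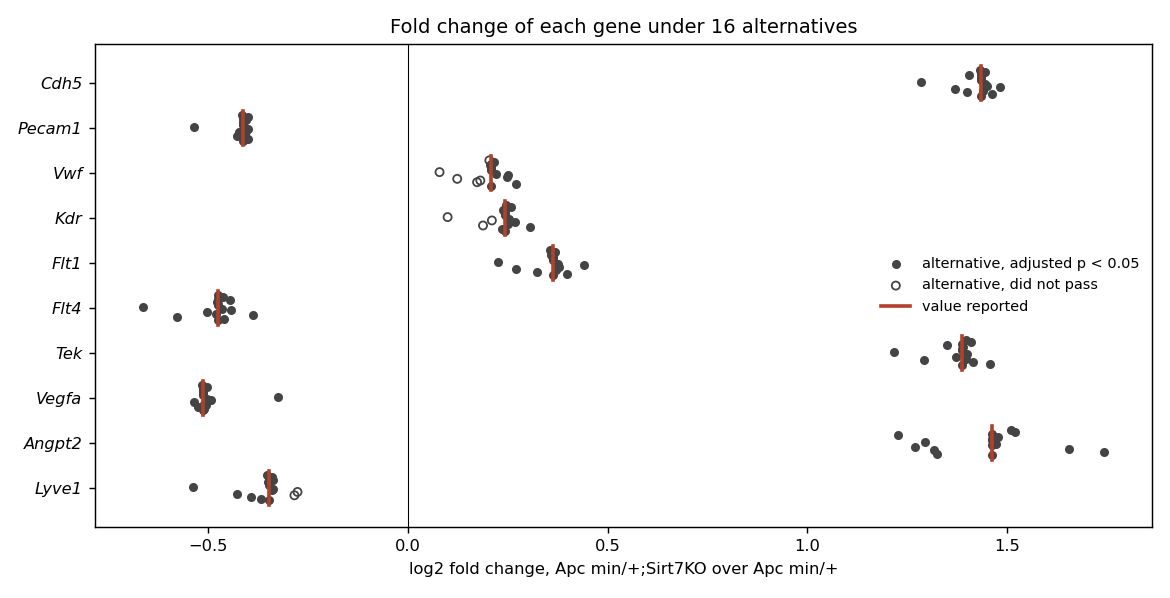
log2 fold change of Apc min/+;Sirt7KO over Apc min/+ for each of the 10 genes as reported (red bar) and under 16 alternatives (points, open where the gene did not pass). Open points are seen for Vwf, Kdr and Lyve1, and no point crosses 0.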

How the data were processed

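RNA sequencing of 6 mouse intestine libraries was used, 3 per genotype. Per the labels' protocols, RNA was taken with Trizol and libraries were made with a TruSeq kit. The submitters' processing notes name mm10, HTSeq 0.6.1p1, TopHat2 2.1.1, TopHat, DESeq2 and FastQC, in no stated order and with no strand setting, so antisense or overlapping transcripts are not separated. The authors deposited 1 signal value per gene and library, a read count divided by a size factor. The authors' deposited table also gave log2 fold changes with their errors, a Wald score, and unadjusted and adjusted p-values.

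All values (100%) were whole multiples of 1 step per library to within 0.01 reads, which gave back the reads. The 16600 genes that reached 10 in 3 or more libraries were tested. The test was limma 3.58.1 in R 4.3.3 (trend, robust) on log2(value + 1), which understates changes of low genes, fitted on genotype alone, with p-values adjusted by Benjamini-Hochberg. edgeR 4.0.16 and DESeq2 1.42.0 on the recovered reads were alternatives. The limma test was also run on simulated counts in which few genes changed, unlike here. The recovery of reads was not tested that way. Libraries of a group varied beyond counting error (chi-square per gene, averaged, 3.73 to 6.92). Positions and exon lengths are from GENCODE for GRCm38 (mm10), and promoters from RefSeq for GRCm38.p6. Of each further list, up to 4 genes that passed, by smallest p, were named, with all of the VEGF and angiopoietin list. Others named, including those that did not pass, were added after their values were seen. The 10 genes and the lists were chosen with earlier results of these data known.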

Additional observations from a re-analysis of the deposited data

How the results depend on the processing

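Replicate numbers did not pair the libraries: same-numbered libraries had correlations of their deviations between -0.006 and 0.04. With the replicate number as a block, 6 of the 10 genes were higher and 4 lower, as without it, and 5251 and 5151 genes over the whole table, against 5248 and 5133 without it. Not every library correlated best with its own number. Leaving out 1 library at a time, 4 to 6 were higher and 3 to 4 lower. Over the whole table, 4863 to 5041 genes were then higher and 4766 to 4916 lower, and of the other blood endothelial markers 5 to 8 were higher and 5 to 6 lower. Quantile normalization left 4 higher and 4 lower, and it put Ldha at 0.17, Epcam at 0.28 and Nrp1 at -0.14, and the Pgf log2 fold change at -0.061, each with a changed sign. Leaving out single libraries also turned genes close to 0: Pgf ranged from -0.069 to 0.27, Nrp1 from -0.046 to 0.038, Nrp2 from -0.13 to 0.016, Sema3a from -0.33 to 0.028 and Tie1 from -0.16 to 0.083. Values set against reference genes depended on the reference. Against Cdh5 alone, of 8 genes, 6 were lower and 0 higher in limma, 0 also at an unadjusted p under 0.05, against 88.9% and 3.79% of all genes, and Tek stood at -0.046. Against Pecam1 alone, 5 were higher and 0 lower in limma, or 1 lower (Vegfa) at an unadjusted p under 0.05, against 60.9% and 12.1% of all genes, with Vwf at 0.62, Kdr at 0.65, Flt1 at 0.78 and Lyve1 at 0.063. Of the same 8 genes, 3 were lower against the mean of the other blood endothelial markers, against 47.1% of all genes, and Flt1 stood at 0.11. Tek and Angpt2 were higher, against 18.9% of all genes. Against their median 3 were lower and Tek and Angpt2 higher, against 35.3% and 17% of all genes. Vwf then stood at 0.012, Kdr at 0.047 and Flt1 at 0.17. Against Cdh5 and Pecam1 together, leaving out 1 library gave 2 higher and 4 to 6 lower. With all 6 libraries, 11.7% of all genes were higher and 62.4% lower against this reference, so the lower calls are no mark of these genes. The cause of the changes between settings was not tested. Angpt2, with 84 reads over the Apc min/+ libraries, had the fewest reads and the widest interval of the 10 genes, and Pgf, Pf4 and Angpt1 had larger errors still.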
